A study of Rattus norvegicus with 47 samples.

Results

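Arc, Homer1, Nptx1, Nptx2, Nrn1 and Vgf are neuronal genes taken here as a group of activity-regulated synaptic effectors, though not every member or transcript form need follow activity. They were measured in rat brain after an injury, on oligonucleotide arrays. A probe set (the group of short probes that together report 1 transcript) was taken where the platform's annotation names one of these symbols and no other. This gave 14 of the 8799 probe sets on the array, for 6 of the 4737 genes with such a probe set: 6 for Homer1, 3 for Nptx1, 2 for Nptx2 and 1 each for Arc, Nrn1 and Vgf. A further probe set annotated to both Hax1 and Homer1 was left out.

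Total RNA from 47 tissue samples, extracted with Trizol, was hybridised to 1 array each. The 6 groups were ipsilateral cortex 4 h after injury (n = 7), contralateral cortex at 4 h (n = 8), ipsilateral cortex at 24 h (n = 8), contralateral cortex at 24 h (n = 8), ipsilateral hippocampus at 4 h (n = 7) and contralateral hippocampus at 4 h (n = 9). Hippocampus is how the label HC was read, and a sample is named here by its number in the labels. All groups carry the label of time after injury and 1 treatment entry, "wait". The labels do not give the kind of injury, the strain, sex and age, or whether each sample is a separate animal, and no label sets sham or uninjured samples apart. The contralateral side was therefore the comparison for the ipsilateral side, and every p-value below reflects the spread among these samples alone, part or all of which may be technical.

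Calcium entry through NMDA receptors and voltage-gated channels drives activity-regulated genes through transcription factors such as CREB and SRF. Arc protein takes part in the removal of AMPA receptors from the synapse, and Homer1 ties metabotropic glutamate receptors to the Shank scaffold and to intracellular calcium stores. A short form of Homer1 that is itself induced by activity cannot form such ties. The neuronal pentraxins Nptx1 and Nptx2 are secreted and gather AMPA receptors at excitatory synapses, Nrn1 (neuritin) is a membrane-anchored protein that favours neurite growth and synapse maturation, and Vgf is cut into secreted peptides of the granin class. All are studied in cortex and hippocampus, where seizures, learning and injury change their levels.

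RefSeq's promoter table for rat (build GRCr8, 250 bases before to 50 after the annotated start) held an entry for 3 of the 6 genes: Homer1, Nptx2 and Vgf. The sequences of Nptx2, at chr12:15161996-15162295, and Vgf, at chr12:25276971-25277270, both on the minus strand, are shown because both hold the core letters of the site for CREB, the factor that couples neuronal activity to transcription. Capitals mark TGACG, or the full palindrome TGACGTCA, and both are written 5′ to 3′ in the gene's direction.
Nptx2: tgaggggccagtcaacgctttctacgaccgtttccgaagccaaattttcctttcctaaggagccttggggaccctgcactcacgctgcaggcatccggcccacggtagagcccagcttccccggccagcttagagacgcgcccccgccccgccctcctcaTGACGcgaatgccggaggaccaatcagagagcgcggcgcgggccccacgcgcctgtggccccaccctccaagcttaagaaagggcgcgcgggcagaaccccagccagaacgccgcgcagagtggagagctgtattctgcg
Vgf: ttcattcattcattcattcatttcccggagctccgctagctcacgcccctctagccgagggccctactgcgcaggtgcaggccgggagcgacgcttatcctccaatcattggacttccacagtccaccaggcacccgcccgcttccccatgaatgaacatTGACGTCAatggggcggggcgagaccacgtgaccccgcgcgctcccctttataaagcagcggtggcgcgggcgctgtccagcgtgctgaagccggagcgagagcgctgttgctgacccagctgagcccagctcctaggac
The letters TGACG began 90 bases before the annotated start in both genes. In Vgf they were part of the full palindrome TGACGTCA, which 1.83% of the 33469 promoters in the table held on either strand. The shorter TGACG, which any full palindrome also contains, was found on either strand in 21.2% of them. Vgf also held CACGTG from 65 to 60 bases before the start (6.42% of promoters) and TATAAA from 41 to 36 bases before it (14.2%). CCAAT lay from 71 to 67 bases before the start in Nptx2 and from 149 to 145 bases before it in Vgf (37.5%). GCGTGGGCG, letters bound by EGR factors (0.544% of promoters, both strands searched), was in none of the 3 windows. In the Homer1 window, at chr2:26278762-26279061 on the plus strand, TGACG was not present and TATAAA occurred on the opposite strand from 223 to 218 bases before the start. Each match is a stretch of letters and was not tested as a binding site.

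The arrays had been brought to a common scale before deposition, since their 2%-trimmed means lay between 2502.87 and 2503.6, while their medians ranged from 614.5 to 879.1. Signals have no physical unit, and the level of a probe set was not set against that of another. The dim end of the signal differed between the hippocampal groups: the 10th percentile was 44 ± 6.85 (SD, n = 7) on the ipsilateral and 64.8 ± 16.1 (SD, n = 9) on the contralateral side. In cortex it was 57.1 ± 10.4 ipsilaterally and 56.9 ± 12.5 contralaterally at 4 h, and 47.9 ± 6.18 and 51.3 ± 7.74 at 24 h. Its mean thus also differed in the time and region comparisons. All 6 measured genes listed as hippocampus-enriched were higher in contralateral hippocampus than in contralateral cortex (median log2 difference 1.77, led by Doc2b at 2.17). All 4 measured genes listed as cortex-enriched were lower (median -1.12, led by Pvalb at -1.38). The lists were chosen with earlier results of these data known, so these differences are no independent check of the tissue. In such tissue samples fewer cells of a type and less RNA per cell cannot be told apart. All 14 probe sets entered the test, with 13 above the signal floor of 185.8 on all 47 arrays and the Nptx1 probe set rc_AI072098_at on 27.

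Arc was lower in hippocampus than in cortex on both sides of the brain and did not pass the test between sides. Its signal ran from 5906 to 24670 (median 12010) in contralateral cortex at 4 h and from 7381 to 22790 (median 11860) in ipsilateral cortex at 4 h. At 24 h the range was 8749 to 15290 (median 13250) on the contralateral and 6361 to 15080 (median 10460) on the ipsilateral side. In hippocampus it was 4349 to 9685 (median 6184) on the contralateral and 4093 to 7602 (median 5898) on the ipsilateral side. The cortical groups thus overlapped one another widely, and 3 contralateral and 4 ipsilateral hippocampal samples lay below the lowest cortical one. Arc was lower in hippocampus by a log2 difference of -0.93 (SE 0.21, 1.91-fold, limma adjusted p = 0.000587) on the contralateral side and -1.10 (SE 0.23, 2.15-fold, limma adjusted p = 0.00028) on the ipsilateral side, with overlapping groups in both. The ipsilateral minus contralateral difference was 0.04 (95% interval -0.41 to 0.50) in cortex at 4 h, -0.30 (-0.75 to 0.14) in cortex at 24 h and -0.13 (-0.57 to 0.32) in hippocampus.

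In order of mean log2 signal, Arc stood at 13.61 ± 0.27 (SD, n = 8) in contralateral cortex at 24 h, 13.59 ± 0.57 (n = 7) in ipsilateral and 13.55 ± 0.70 (n = 8) in contralateral cortex at 4 h, 13.31 ± 0.42 (n = 8) in ipsilateral cortex at 24 h, 12.62 ± 0.40 (n = 9) in contralateral and 12.49 ± 0.30 (n = 7) in ipsilateral hippocampus. Among neighbours in this order, the step from ipsilateral cortex at 24 h to contralateral hippocampus (0.69) was the one larger than the SD of either group. Contralateral cortex at 4 h had the widest spread, with samples 11 and 15 at the highest and lowest signal of all cortical samples.

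**Figure D1:**
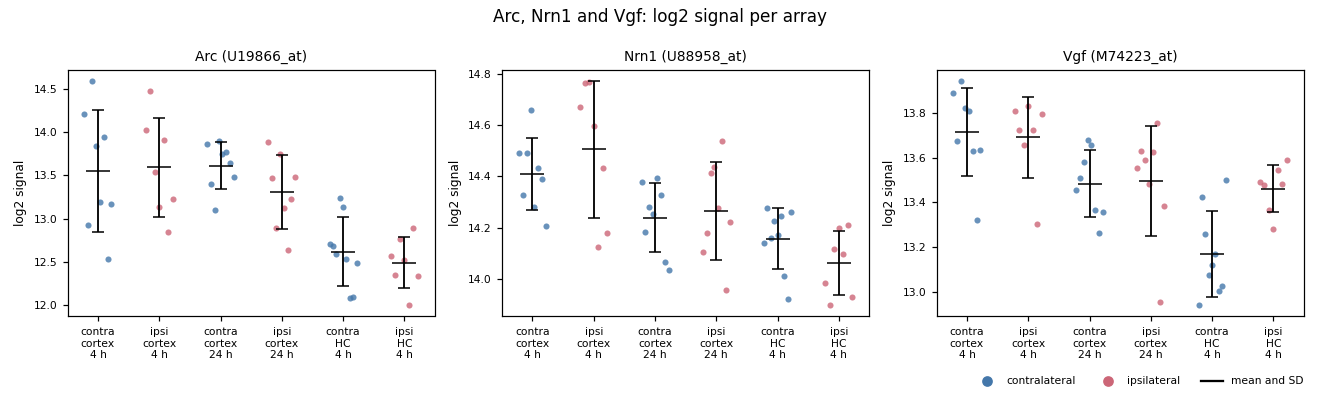
Log2 signal (y axis, floored at the 25th percentile of all values) of Arc, Nrn1 and Vgf in the 6 groups (x axis); each point is 1 array, blue contralateral and red ipsilateral, with bars for the mean and SD. The means of Arc fall from 13.31 or more in cortex to 12.62 or less in hippocampus, while Vgf in ipsilateral hippocampus (13.46) lies above contralateral hippocampus (13.17).

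Homer1 had 6 probe sets, which the files do not tie to its isoforms, so each is given apart. In hippocampus at 4 h, 3 of the 6 were higher on the ipsilateral than on the contralateral side, and none passed in the opposite direction, where 5.32% of all probe sets tested were called higher and 10.8% lower. Neither these nor the other hippocampal side calls passed with each array's 10th percentile of signal added to the model, as given with that comparison below. AF093268_s_at had signals from 1350 to 3521 (median 2502) on the contralateral and 2829 to 5206 (median 4449) on the ipsilateral side. The ipsilateral samples were mostly above the contralateral ones, with some overlap. The log2 difference was 0.78 (SE 0.14, 1.71-fold, limma adjusted p = 0.000409). AF093267_s_at ran from 1293 to 2372 (median 1593) against 1386 to 3713 (median 2682) ipsilaterally. Its log2 difference was 0.60 (SE 0.13, 1.51-fold, limma adjusted p = 0.00215), and the groups overlapped because ipsilateral samples 20 and 22 lay within the contralateral range. AB003726_at ran from 1693 to 2917 (median 2387) against 2137 to 5172 (median 3290), a log2 difference of 0.53 (SE 0.17, 1.44-fold, limma adjusted p = 0.029). That call was lost without sample 19 (adjusted p = 0.0546), 21 (0.0642), 24 (0.0935), 25 (0.0511) or 32 (0.063).

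The other Homer1 probe sets had hippocampal side differences of 0.16 (95% interval -0.17 to 0.49) for AB007688_s_at, 0.15 (-0.01 to 0.31) for AB017140_at and 0.12 (-0.03 to 0.27) for AB017140_g_at. Whether the 6 differ among themselves in their side difference was tested pair by pair (15 pairs in each of the 3 side comparisons), by an exact two-sided permutation test on the difference between the probe sets within an array. None of the 45 Homer1 tests passed after adjustment over all 54 tests on Homer1 and Nptx1. The widest gap in hippocampus, -0.66 between AB017140_g_at and AF093268_s_at, had an exact p = 0.00323 and an adjusted p = 0.0545.

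In cortex the Homer1 probe sets did not pass between sides at either time. All 6 ipsilateral minus contralateral differences were negative at 24 h, from -0.20 to -0.26 on the log2 scale, and 2 of these had an unadjusted p under 0.05. For AB017140_g_at the signal was 5550 to 7121 (median 6243) on the ipsilateral against 6260 to 8978 (median 7400) contralaterally, which gave a log2 difference of -0.23 (SE 0.07, limma adjusted p = 0.304). AB017140_at gave -0.22 (SE 0.08, limma adjusted p = 0.413), and in both probe sets no ipsilateral sample exceeded the contralateral median. The 6 probe sets report 1 gene on the same samples and are not independent. At 4 h the largest cortical difference was -0.31 for AF093268_s_at (SE 0.14, limma adjusted p = 0.634).

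Between 4 h and 24 h, Homer1 rose in cortex on both sides in 3 of its probe sets, where 13.2% of all probe sets rose contralaterally and 11.4% ipsilaterally. AF093267_s_at went from 1967 to 2681 (median 2152) at 4 h to 3525 to 4894 (median 4263) at 24 h in contralateral cortex. Ipsilaterally it went from 1818 to 2510 (median 2256) to 2674 to 4589 (median 3852). The times did not overlap on either side, with log2 differences of 0.94 (SE 0.13, 1.92-fold, limma adjusted p = 7.54e-07) contralaterally and 0.77 (SE 0.14, 1.71-fold, limma adjusted p = 4.46e-05) ipsilaterally. AB007688_s_at rose by 0.87 (SE 0.16, limma adjusted p = 8.19e-05) contralaterally and 0.85 (SE 0.17, limma adjusted p = 0.000217) ipsilaterally. AF093268_s_at rose by 0.39 (SE 0.14, limma adjusted p = 0.0356) contralaterally and 0.47 (SE 0.14, limma adjusted p = 0.0156) ipsilaterally. The contralateral call of AF093268_s_at was lost without any 1 of samples 9, 11, 13, 15, 41, 42, 43, 45, 46 or 48, with adjusted p from 0.0517 to 0.0942, and after quantile normalization (0.32, adjusted p = 0.107). It was also lost with the 10th percentile of signal in the model (0.35, adjusted p = 0.05 after rounding). AB017140_at rose contralaterally by 0.42 (SE 0.08, limma adjusted p = 0.000127), and its ipsilateral difference of 0.14 did not pass. AB017140_g_at fell ipsilaterally by 0.31 (SE 0.08, limma adjusted p = 0.00253), and its contralateral difference of -0.07 did not pass. Whether these 2 probe sets differ in their change with time was not tested.

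Against cortex, Homer1 was lower in hippocampus at 4 h in 5 of its 6 probe sets on the contralateral side and in 3 on the ipsilateral side. Of all probe sets, 11.4% and 10.8% were called lower in the same comparisons. AB003726_at had signals of 5409 to 11280 (median 9221) in contralateral cortex, against the 1693 to 2917 in contralateral hippocampus given above. The 2 groups did not overlap, and the log2 difference was -1.90 (SE 0.16, 3.74-fold, limma adjusted p = 3.07e-13). Ipsilaterally it was -1.45 (SE 0.18, 2.74-fold, limma adjusted p = 1.2e-08), again without overlap. AB017140_g_at also separated the regions, with 7149 to 8512 in contralateral cortex and 3039 to 4649 in contralateral hippocampus (log2 difference -0.96, SE 0.07, limma adjusted p = 4.67e-15). On the ipsilateral side the same probe set gave -0.85 (SE 0.08, limma adjusted p = 6.65e-12). AF093268_s_at was lower in hippocampus by -1.19 (SE 0.13, limma adjusted p = 7.48e-10) contralaterally, without overlap, and its ipsilateral difference was -0.10, which did not pass.

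The remaining region calls for Homer1 were smaller. AB017140_at gave -0.45 (SE 0.08, limma adjusted p = 8.71e-06) contralaterally and -0.36 (SE 0.09, limma adjusted p = 0.00107) ipsilaterally, and AF093267_s_at gave -0.41 (SE 0.13, limma adjusted p = 0.0101) contralaterally. Its ipsilateral difference of opposite sign did not pass with all samples and passed without sample 22 (0.37, limma adjusted p = 0.0229). Ordered by mean, contralateral cortex at 24 h was highest in 5 of the 6 Homer1 probe sets and contralateral hippocampus was lowest in all 6. In AB017140_g_at the highest group was ipsilateral cortex at 4 h, at 12.94 ± 0.12 (SD, n = 7). Steps larger than either group's SD separated cortex from hippocampus in AB003726_at (1.37), AB017140_at (0.31) and AB017140_g_at (0.53). Such steps also separated the 24 h from the 4 h cortex in AB007688_s_at (0.61) and AB017140_at (0.145). In AF093267_s_at a step of 0.55 set the 24 h cortex groups above all 4 h groups.

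**Figure D2:**
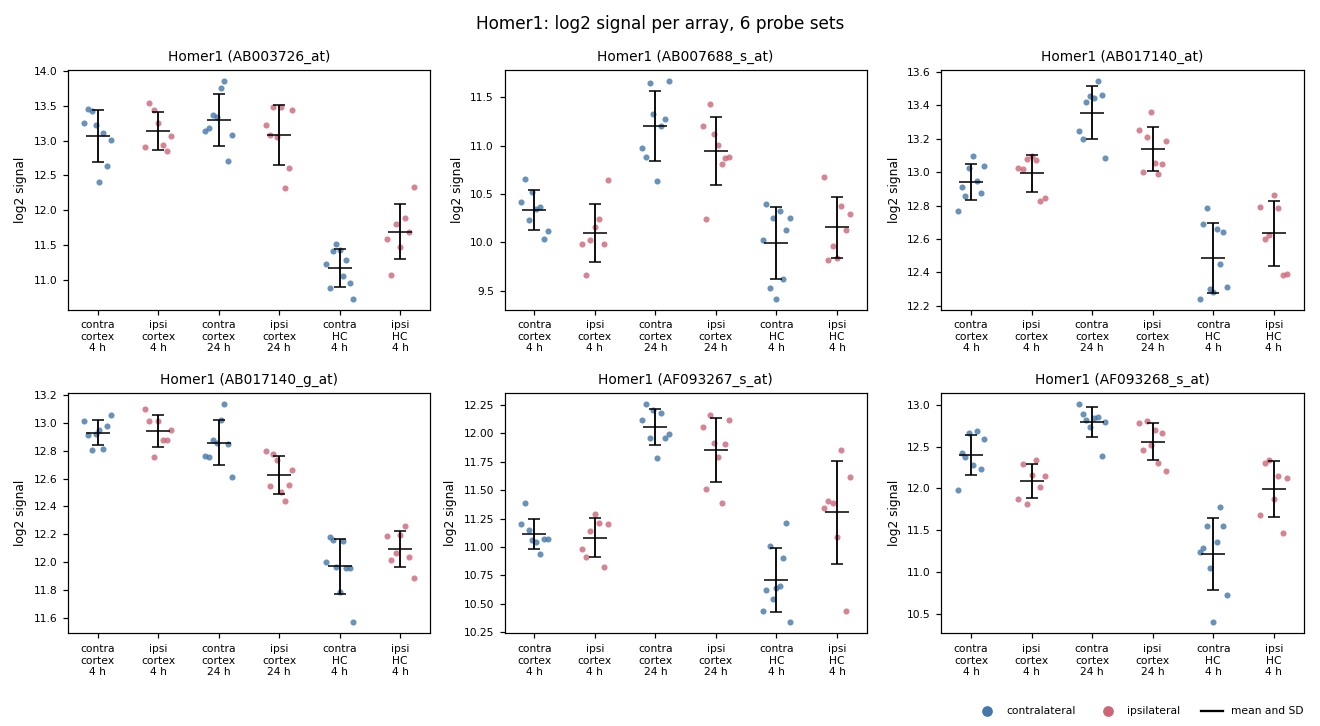
Log2 signal (y axis) of the 6 Homer1 probe sets in the 6 groups (x axis); points are arrays, blue contralateral and red ipsilateral, with the mean and SD. The contralateral hippocampus has the lowest mean in each panel (11.16 for AB003726_at), and the 24 h cortex lies above the 4 h cortex for AF093267_s_at (12.06 against 11.12 contralaterally).

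The probe sets of Nptx1 did not move together in hippocampus. For rc_AI072943_at the signal was 1767 to 3138 (median 1998) contralaterally and 2819 to 4149 (median 3461) ipsilaterally, a log2 difference of 0.64 (SE 0.13, 1.56-fold, limma adjusted p = 0.00101). Of the 7 ipsilateral samples, 4 lay above every contralateral one. For rc_AI072098_at the signal was 215.5 to 879.9 (median 588.5) contralaterally and 81.74 to 444.8 (median 120) ipsilaterally, where 5 of the 7 arrays were at or under the floor. Its floored log2 difference was -1.13 (SE 0.31, limma adjusted p = 0.01), whose size is set by the floor and was -1.76 with the floor at the 10th percentile. For rc_AI044716_at the difference was 0.12 (95% interval -0.21 to 0.45). In exact two-sided permutation tests between probe sets, rc_AI072943_at differed in its side difference from rc_AI072098_at by 1.77 in size (-1.774 as the second minus the first, exact p = 0.000612, adjusted p = 0.0212). It also differed from rc_AI044716_at (-0.52, exact p = 0.000787, adjusted p = 0.0212). These were the 2 of 54 tests on Homer1 and Nptx1 that passed. The sign of the Nptx1 side difference in hippocampus therefore depended on the probe set in these fits. With the 10th percentile of signal in the model, rc_AI072943_at (limma adjusted p = 0.249) and rc_AI072098_at (0.382) kept their signs but did not pass. The tests between probe sets were not repeated under that model.

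Over time, rc_AI072943_at rose in cortex from 1692 to 2341 (median 1907) at 4 h to 2243 to 3476 (median 2610) at 24 h contralaterally. On the ipsilateral side it went from 1315 to 2773 (median 2029) to 2511 to 2819 (median 2609). The ipsilateral 24 h samples lay close together, with an SD of 0.07 on the log2 scale against 0.42 at 4 h. The rises were 0.46 (SE 0.12, limma adjusted p = 0.0057) contralaterally and 0.47 (SE 0.13, limma adjusted p = 0.00728) ipsilaterally. The contralateral call was lost after quantile normalization, a scaling that gives all arrays 1 distribution (0.32, adjusted p = 0.0672). In ipsilateral hippocampus rc_AI072943_at was also higher than in ipsilateral cortex at 4 h, without overlap (log2 difference 0.83, SE 0.13, 1.78-fold, limma adjusted p = 3.15e-06). For rc_AI072098_at, contralateral hippocampus was above contralateral cortex by a floored log2 difference of 1.15 (SE 0.30, limma adjusted p = 0.00205). With 5 of 8 cortical arrays at or under the floor, its size is set by the floor, and it was 1.64 with the floor at the 10th percentile. In rc_AI044716_at no comparison passed, and its 6 group means, 9.79 to 10.25, followed one another in steps smaller than their SDs.

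With all samples and the main settings, Nptx2 did not pass in any of the 3 side comparisons, although its ipsilateral mean was the higher in each. S82649_s_at had signals of 5041 to 6445 (median 6261) in contralateral and 5234 to 8610 (median 6885) in ipsilateral cortex at 4 h, a log2 difference of 0.21 (SE 0.15, limma adjusted p = 0.804). At 24 h it had 5697 to 7392 (median 6493) contralaterally and 5380 to 11510 (median 8244) ipsilaterally, a difference of 0.32 (SE 0.15, limma adjusted p = 0.593). In hippocampus it had 3208 to 5218 (median 4367) contralaterally and 3295 to 8246 (median 5998) ipsilaterally, a difference of 0.36 (SE 0.15, limma adjusted p = 0.0856). In this probe set the ipsilateral samples spread more widely than the contralateral ones each time, with SDs of 0.26 against 0.14, 0.47 against 0.13 and 0.46 against 0.22 on the log2 scale. In the other Nptx2 probe set, S82649_r_at, the SDs were 0.71 against 0.66 and 0.76 against 0.60 in cortex at 4 h and 24 h. In hippocampus the order was reversed there, at 0.76 ipsilaterally against 0.88 contralaterally. These differences in spread were not tested.

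The wide ipsilateral spread of S82649_s_at at 24 h came from samples 35, 37, 38 and 40, at signals of 11290, 10780, 10030 and 11510, each above the highest contralateral value. Samples 33, 34, 36 and 39, at 5380, 5968, 6459 and 6153, lay within or just below the contralateral range. The labels give no difference between these samples. S82649_r_at, named for the same sequence, had hippocampal signals of 796.9 to 4812 (median 1461) contralaterally and 1110 to 5294 (median 4367) ipsilaterally. Its difference of 0.96 (SE 0.35, 1.94-fold) had a limma adjusted p = 0.0507. It passed without sample 17 (1.23, adjusted p = 0.0133), 23 (1.11, 0.0273) or 31 (1.14, 0.0165), and S82649_s_at passed without sample 17 (0.49, adjusted p = 0.0174). The cortical differences of S82649_r_at were 0.59 (95% interval -0.12 to 1.31) at 4 h and 0.60 (-0.10 to 1.29) at 24 h.

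Between regions, Nptx2 was lower in contralateral hippocampus than in contralateral cortex by -0.44 for S82649_s_at (SE 0.14, limma adjusted p = 0.0146) and -0.85 for S82649_r_at (SE 0.34, limma adjusted p = 0.0438). The second call was lost without any 1 of samples 9, 10, 11, 12, 15, 16, 25, 26, 27, 28, 29 or 30, with adjusted p from 0.056 to 0.102. It was also lost with no filter on dim probe sets (adjusted p = 0.067), with the compared groups alone (0.0568), with no intensity trend (0.0522) and with the 10th percentile in the model (0.0905). On the ipsilateral side neither probe set passed. In order of mean, S82649_s_at ran from ipsilateral cortex at 24 h (12.98 ± 0.47, SD, n = 8) through ipsilateral cortex at 4 h (12.76), contralateral cortex at 24 h (12.65) and 4 h (12.54) and ipsilateral hippocampus (12.47) to contralateral hippocampus (12.11 ± 0.22, n = 9). No neighbours in that order were further apart than the larger of their SDs.

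**Figure D3:**
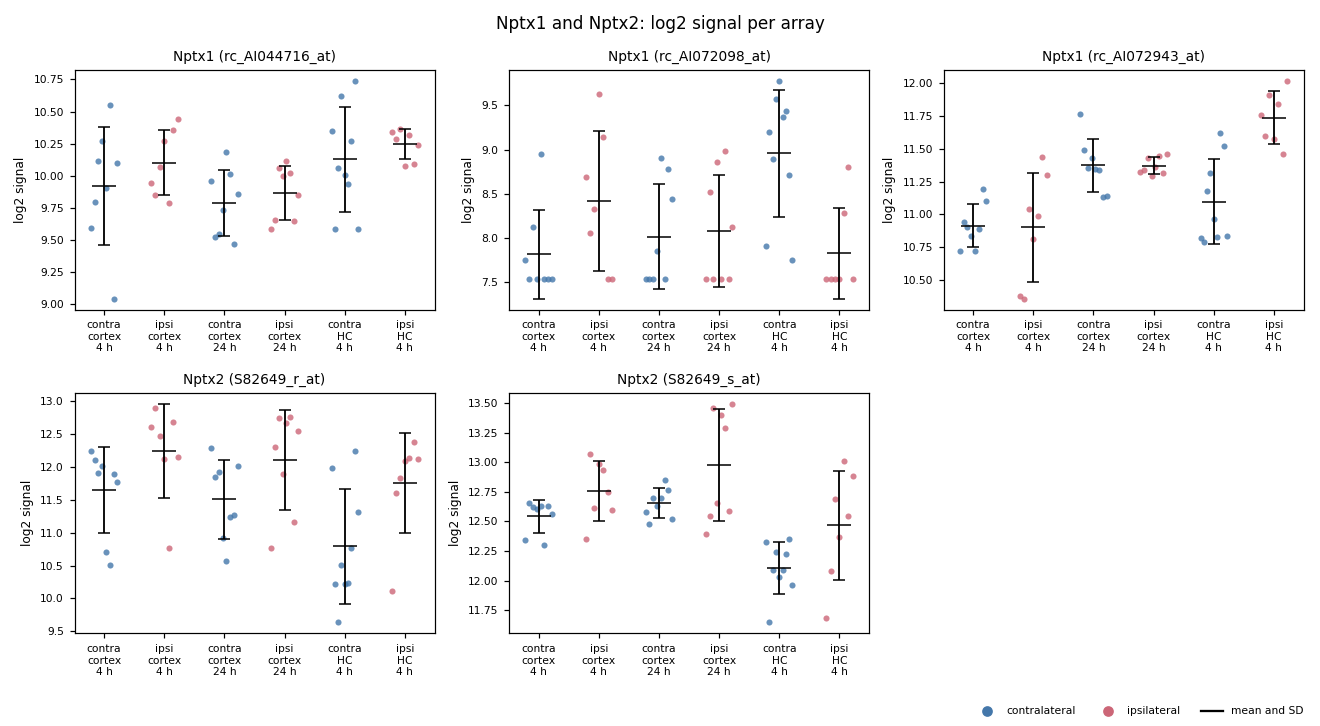
Log2 signal (y axis) of the 3 Nptx1 and 2 Nptx2 probe sets in the 6 groups (x axis); points are arrays, blue contralateral and red ipsilateral, with the mean and SD. In hippocampus rc_AI072943_at is higher and rc_AI072098_at lower on the ipsilateral side (11.74 against 11.10 and 7.82 against 8.96), and Nptx2 S82649_s_at spreads more in ipsilateral than in contralateral cortex at 24 h (SD 0.47 against 0.13).

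Nrn1 was lower in hippocampus than in cortex and did not pass the test between sides. Its signal was 18920 to 25900 (median 21780) in contralateral and 17870 to 27940 (median 24800) in ipsilateral cortex at 4 h, and 16750 to 21510 (median 19720) and 15890 to 23760 (median 19450) at 24 h. In hippocampus it was 15490 to 19830 (median 18450) contralaterally and 15240 to 18940 (median 17510) ipsilaterally. All groups overlapped their neighbours, and no neighbouring means were further apart than the larger SD. Side differences were 0.10 (95% interval -0.08 to 0.27) in cortex at 4 h, 0.03 (-0.14 to 0.20) at 24 h and -0.10 (-0.27 to 0.07) in hippocampus. Nrn1 was lower in hippocampus than in cortex by -0.45 (SE 0.09, 1.36-fold, limma adjusted p = 0.000119) ipsilaterally and -0.25 (SE 0.08, limma adjusted p = 0.0128) contralaterally. The contralateral call was lost after quantile normalization (-0.12, adjusted p = 0.298). In ipsilateral cortex Nrn1 fell with time by 0.24 on the log2 scale (SE 0.09, limma adjusted p = 0.0412). Quantile normalization ended that call too (-0.14, adjusted p = 0.302), as did leaving out any 1 of samples 1, 3, 4, 5, 33, 34, 37, 39 or 40 (adjusted p 0.0552 to 0.122). The ipsilateral call was also lost with the compared groups alone (adjusted p = 0.151), with no intensity trend (0.0592) and with the 10th percentile of signal in the model (0.0958).

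Vgf was higher on the ipsilateral side in hippocampus and lower in contralateral hippocampus than in contralateral cortex. Its hippocampal signal was 7853 to 11600 (median 8884) contralaterally and 9942 to 12320 (median 11420) ipsilaterally. The groups overlapped, with 2 of the 7 ipsilateral samples above the highest contralateral one, at a log2 difference of 0.29 (SE 0.09, 1.23-fold, limma adjusted p = 0.0246). The call was lost without sample 21 (adjusted p = 0.0534) or 24 (0.0545). In cortex at 4 h the signal was 10250 to 15760 (median 13700) contralaterally and 10100 to 14560 (median 13530) ipsilaterally, and at 24 h it was 9824 to 13110 (median 11440) and 7930 to 13820 (median 12170). The cortical sides overlapped almost fully, with differences of -0.02 (95% interval -0.21 to 0.17) at 4 h and 0.01 (-0.17 to 0.20) at 24 h.

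Against contralateral cortex, Vgf was lower in contralateral hippocampus by -0.55 (SE 0.09, 1.46-fold, limma adjusted p = 3.13e-06). On the ipsilateral side the difference was -0.23 (limma adjusted p = 0.0715), and it passed without sample 7 (-0.30, adjusted p = 0.0175). The time differences did not pass. Without sample 15, 44 or 45 the contralateral one passed (-0.29, -0.26 and -0.26, adjusted p = 0.0169, 0.043 and 0.0449), and without sample 7 the ipsilateral one (-0.26, adjusted p = 0.0452). The mean of Vgf was 13.72 ± 0.20 (SD, n = 8) in contralateral and 13.69 ± 0.18 (n = 7) in ipsilateral cortex at 4 h, 13.50 ± 0.24 (n = 8) in ipsilateral and 13.48 ± 0.15 (n = 8) in contralateral cortex at 24 h, 13.46 ± 0.11 (n = 7) in ipsilateral and 13.17 ± 0.19 (n = 9) in contralateral hippocampus. The last step (0.29) was the one larger than the SD of either neighbour. Between samples, the deviations of Vgf and Nptx2 from the group means had a Pearson r of -0.01 (permutation p = 0.954, adjusted p = 0.954) and a Spearman rho of -0.09 (permutation p = 0.572, adjusted p = 0.78).

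Seen by comparison, the side difference in hippocampus gave 6 calls among the 14 probe sets, from 3 genes: 5 higher (3 of Homer1, rc_AI072943_at of Nptx1, and Vgf) and 1 lower (rc_AI072098_at of Nptx1). Over all 7503 probe sets tested, 16.1% were called, 5.32% higher and 10.8% lower. The median side difference was 0.23 over the 14 and -0.04 over all tested. The dim end of the arrays moved with this comparison, as given above. With each array's 10th percentile of signal added to the model, none of the 14 passed and 5 of the 7503 did, while all 6 called differences kept their sign. AF093268_s_at then stood at 0.62 (SE 0.16, limma adjusted p = 0.0955), Vgf at 0.40 (SE 0.10, limma adjusted p = 0.107) and AB003726_at at 0.62 (SE 0.20, adjusted p = 0.249). For AF093267_s_at it was 0.41 (adjusted p = 0.305), for rc_AI072943_at 0.41 (adjusted p = 0.249) and for rc_AI072098_at -0.88 (adjusted p = 0.382). Of 4 genes listed as cortex-enriched 1 passed in this comparison. Pvalb, the calcium-binding protein of fast-spiking interneurons, was higher ipsilaterally at 0.43 (SE 0.11, limma adjusted p = 0.00529). The median difference of the 4 was 0.27, and none was at the floor on all arrays. Their summed signal was 17120 to 20070 in ipsilateral and 15180 to 21460 in contralateral hippocampus. None of the 6 genes listed as hippocampus-enriched passed (median -0.07). Of 16 neuron markers 1 was higher and none lower. Markers of other cells that passed were all lower on the ipsilateral side: the endothelial genes Flt1 (-0.76) and Icam2 (-0.47) of 6, the leukocyte gene Lck (-0.98) of 5, the erythroid gene Slc4a1 (-0.67) of 4, the microglial gene C1qc (-0.43) of 10 and the choroid plexus gene Prlr (-1.13) of 7. None of 9 astrocyte and 7 oligodendrocyte markers passed. Most markers in these lists did not pass, and their signs were mixed. Differences were positive for 7 of 10 microglial (median 0.093), 4 of 7 choroid plexus (0.006) and 2 of 4 erythroid markers (-0.085). They were positive for 2 of 6 endothelial (median -0.18), 2 of 5 leukocyte (-0.423), 4 of 9 astrocyte (-0.03) and 6 of 7 oligodendrocyte markers (0.161). The summed signal ran from 4197 to 6240 ipsilaterally and 4863 to 7663 contralaterally for the endothelial list, and from 1073 to 2397 and 1958 to 3709 for the leukocyte list, in which 1 gene was at the floor on all ipsilateral arrays. The part of these markers in the 6 calls was not tested. Of all calls, 33.1% were higher, against 46.2% after quantile normalization.

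In cortex none of the 14 passed between sides. At 4 h the limma test called 0 of 7503 probe sets (0%), with 558 at an unadjusted p under 0.05, and 1 of the 14 was under that level (smallest adjusted p = 0.634). At 24 h it called 0.107%, and 3 of the 14 had an unadjusted p under 0.05 (smallest adjusted p = 0.304). Whether the cortical side difference changed from 4 h to 24 h was tested as a contrast of its own, which called 0% of probe sets, 421 of which were under an unadjusted 0.05, with 2 of the 14 among them and a smallest adjusted p of 0.83. Of 10 microglial markers 1 passed at 24 h, Spp1, higher on the ipsilateral side (2.59, SE 0.58, limma adjusted p = 0.0498). No probe set passed this comparison with no filter on dim probe sets, with the compared groups alone or with no intensity trend. For the 10 markers, 9 differences were positive (median 0.46), and none was at the floor on all arrays. The summed signal of these markers was 27950 to 52220 ipsilaterally and 26480 to 35430 contralaterally. Their part in the Nptx2 values was not tested.

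The side difference itself differed between hippocampus and cortex at 4 h for 4 of the 14 probe sets, 3 higher and 1 lower, where 4.18% of all passed (1.08% higher and 3.11% lower). For AF093268_s_at of Homer1 the hippocampal minus the cortical difference was 1.09 (SE 0.20, limma adjusted p = 0.00262). It was made up of a hippocampal difference of 0.78 and a cortical one of -0.31, which did not itself pass. For AF093267_s_at it was 0.63 (SE 0.19, limma adjusted p = 0.0432). For Nptx1 it was 0.65 in rc_AI072943_at (SE 0.18, limma adjusted p = 0.0316) and, floored, -1.74 in rc_AI072098_at (SE 0.44, limma adjusted p = 0.0197). With 5 of 7 ipsilateral hippocampal and 5 of 8 contralateral cortical arrays at or under the floor, that size is set by the floor, and it was -2.60 with the floor at the 10th percentile. None of the 4 passed with the 10th percentile in the model. The call of AF093267_s_at was lost without any 1 of samples 1, 3, 4, 5, 6, 7, 9, 10, 11, 15, 16, 17, 18, 19, 21, 23, 24, 25, 27, 28, 29 or 32 (adjusted p 0.0516 to 0.0987). That of rc_AI072943_at was lost without any 1 of samples 1, 3, 5, 15, 16, 19, 21, 24 or 32 (adjusted p 0.0511 to 0.0664). Of all calls in this comparison, 25.8% were higher, against 36.7% after quantile normalization.

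**Figure D4:**
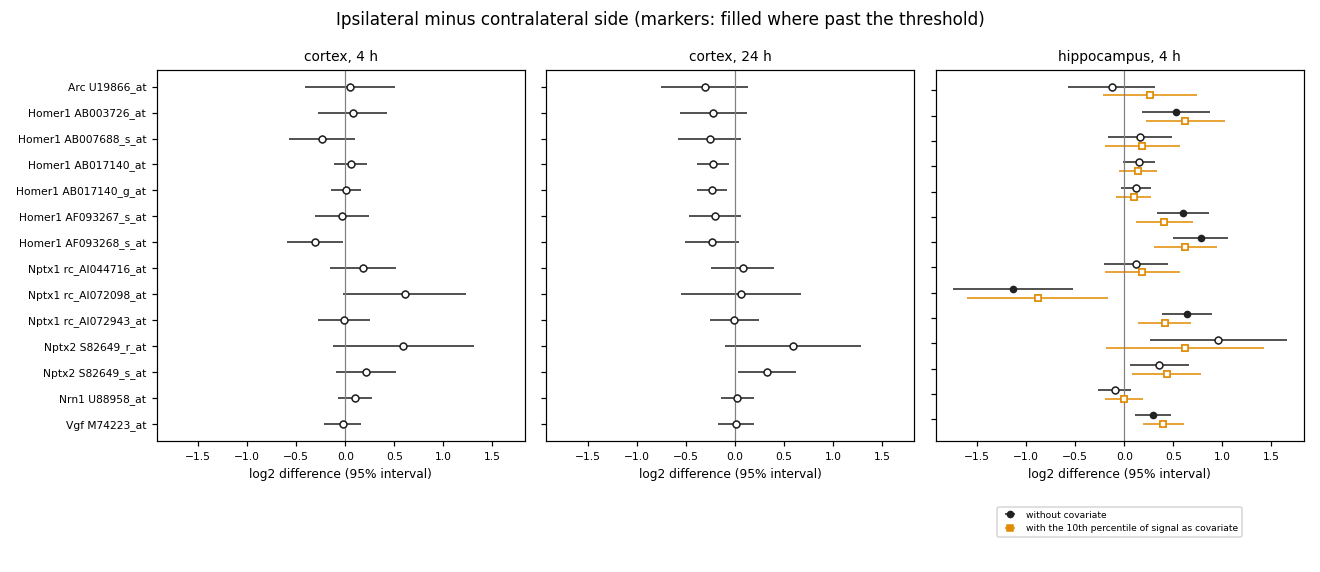
Ipsilateral minus contralateral log2 difference (x axis, points with 95% intervals) of the 14 probe sets (rows) in cortex at 4 h, cortex at 24 h and hippocampus at 4 h; filled markers passed the limma threshold, and orange squares are the fit that includes each array's 10th percentile of signal. The 6 filled circles are all in hippocampus, from -1.13 to 0.78, and no orange square is filled.

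Over time in cortex, 5 of the 14 passed contralaterally, all higher at 24 h (background 21.5% called, 13.2% higher and 8.25% lower), and 6 ipsilaterally, 4 higher and 2 lower (19.3% called, 11.4% higher and 7.92% lower). The rises were all of Homer1 and Nptx1. Arc differed by 0.06 (95% interval -0.37 to 0.50) contralaterally and -0.29 (-0.74 to 0.17) ipsilaterally. Of all contralateral calls 61.6% were higher, against 51.1% after quantile normalization, under which 3 of the 5 passed. The contralateral and ipsilateral time comparisons share no arrays, while each shares arrays with the side comparisons. On both sides the 4 h samples have numbers up to 32 and the 24 h samples numbers from 33 to 48. Time and the order of the sample numbers therefore cannot be told apart in either time comparison. Sample numbers also run in blocks by side and by region, except that contralateral hippocampal sample 23 lies among the ipsilateral numbers. The same limit holds for the region and cortical side comparisons, and for the hippocampal side comparison apart from sample 23.

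Across regions at 4 h, 11 of the 14 passed on the contralateral side, 10 lower and 1 higher in hippocampus, with each of the 6 genes represented (background 33.7% called, 22.3% higher and 11.4% lower). Ipsilaterally 6 passed, 5 lower and 1 higher, from 4 genes (27.5% called, 16.7% higher and 10.8% lower). The median difference over the 14 was -0.45 contralaterally and -0.33 ipsilaterally, beside 0.11 and 0.01 over all probe sets. Quantile normalization moved the contralateral median over all probe sets from 0.11 to 0.01 and the share of calls that were higher from 66.2% to 49.3%. The Homer1 probe set AB007688_s_at passed only under that scaling, among those tried, at -0.56 (SE 0.15, limma adjusted p = 0.00401). Of 16 neuron markers 2 were higher and 4 lower in contralateral hippocampus, and their summed signal was 289800 to 323200 there and 361500 to 411500 in contralateral cortex, with none at the floor on all arrays. Ipsilaterally 3 neuron markers were higher and 5 lower of 16, 5 of 7 oligodendrocyte markers were higher and 1 lower (median 0.49, led by Sox10 at 0.91), and 2 of 4 erythroid markers were lower (Hbb-b1 at -0.56 and Hbb at -0.48). The summed oligodendrocyte signal was 184300 to 263400 in ipsilateral hippocampus and 180600 to 248800 in ipsilateral cortex, and the erythroid one 54700 to 90100 and 50480 to 160600. The part of these markers in the lower values of the 6 genes was not tested.

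**Figure D5:**
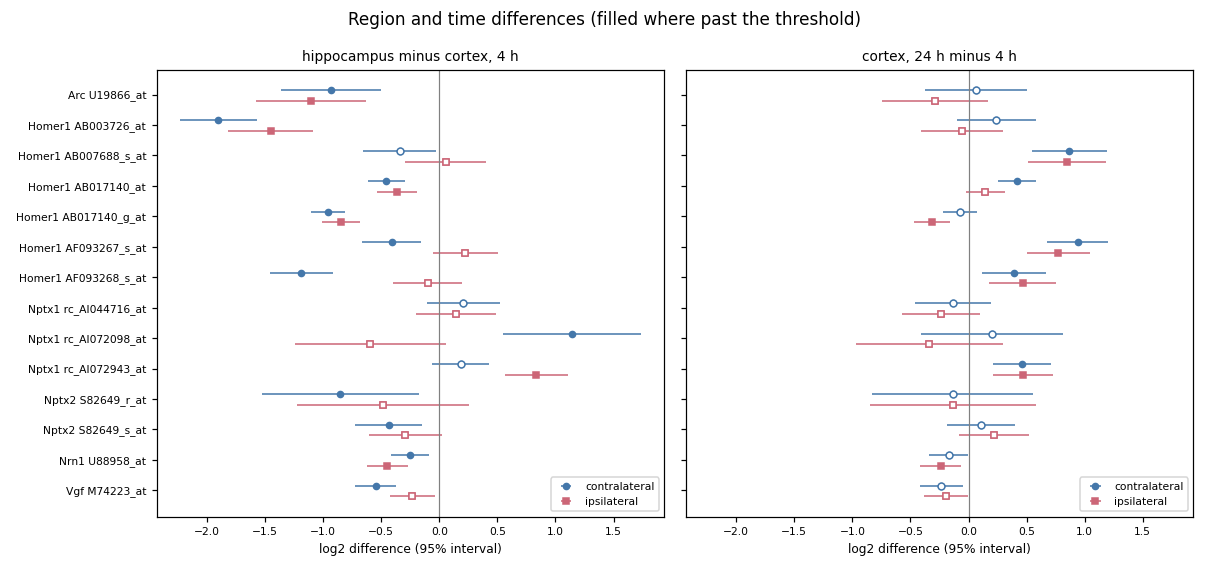
Log2 differences (x axis, points with 95% intervals) of the 14 probe sets (rows) between hippocampus and cortex at 4 h and between 24 h and 4 h in cortex, blue circles contralateral and red squares ipsilateral; filled markers passed the limma threshold. Homer1 AB003726_at lies farthest to the left in the region panel (-1.90 contralaterally), and Homer1 AF093267_s_at farthest to the right in the time panel (0.94 contralaterally).

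Genes upstream, beside and downstream of the 6 were followed as lists, each gene by its brightest probe set. Of 18 immediate early transcription factors measured, 3 were higher and 1 lower on the ipsilateral side in hippocampus, with Egr1 at 0.56 (SE 0.16, limma adjusted p = 0.0116), Klf10 at 0.52 (SE 0.16, limma adjusted p = 0.0213) and Egr4 at -0.79 (SE 0.19, limma adjusted p = 0.00431). Their median was 0.12, beside -0.04 over the 4242 genes tested, of which 204 were higher and 488 lower. Of 17 other activity-regulated genes 3 were higher, among them the vesicle protein gene Syt4 at 0.32 and Plat, the tissue plasminogen activator, at 0.43, and Ier3 was lower at -0.47. Of 22 partners of Homer and Arc 4 were higher and none lower, led by Dnm3 at 0.76, Shank1 at 0.51 and Homer3 at 0.51. Of 8 granins and peptide-processing genes only the protease gene Furin passed (0.33), with all 8 differences positive. None of 6 AMPA receptor and pentraxin partners passed. With the 10th percentile of signal in the model, 5 of all 7503 probe sets passed this side comparison. The lists were not counted under that model, so their calls carry the same limit as those of the 6 genes.

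The same lists across regions gave, in contralateral hippocampus against cortex, 2 higher and 5 lower of the 18 transcription factors, led by Egr2 (-1.71), Egr1 (-1.51) and Nr4a1 (-1.20). The other activity-regulated genes split 3 higher and 4 lower of 17, with Rgs4 (-1.57), Dusp1 (-1.56) and Penk (-1.09) foremost. Among the Homer and Arc partners 3 were higher and 3 lower of 22, and Homer3 (0.88) and Homer2 (0.70) were higher where Homer1 was lower. The AMPA receptor subunit gene Gria1 was higher (1.65), the 1 gene of 6 to pass in its list, and of the 8 granin-list genes Scg2 was higher (0.74) and 4 were lower, Scg5 (-0.62) and Chgb (-0.43) among them. Over all 4242 genes 985 were higher and 490 lower, with a median of 0.12.

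Over time in contralateral cortex the transcription factors gave 4 higher and 1 lower of 18 (Nr4a3 at 0.95, Egr2 at 0.83), the other activity-regulated genes 7 higher and 0 lower of 17 (Rgs4 at 0.71, Tac1 at 0.69), and the partners of Homer and Arc 3 higher and 4 lower of 22 (Dlg2 at 0.85). Gria3 (0.62) and Gria1 (0.48) rose in the AMPA receptor list. Over all genes 544 rose and 360 fell of 4242. In both cortical side comparisons none of the 5 lists had a gene past the limma threshold.

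Between samples of a group, the 6 genes varied mostly apart. Over 15 pairs, with deviations from the group means on 47 arrays and within-group permutations, 1 pair passed: Arc and Nptx1 (rc_AI072943_at) with a Pearson r of -0.46 (permutation p = 0.00226, adjusted p = 0.0339). Spearman's rho was -0.40 (permutation p = 0.0084, adjusted p = 0.11), r was -0.46 without samples 11 and 15, and r was positive in 1 of the 6 groups. No pair passed after quantile normalization. Nrn1 and Vgf had r = 0.37 (permutation p = 0.0177, adjusted p = 0.133), rho = 0.36 (permutation p = 0.0147, adjusted p = 0.11) and r = 0.47 without samples 6 and 8.

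As a description over the same 47 arrays, whose samples share array scale and depth of signal, the genes closest to Arc in these deviations were Nr4a1 (r = 0.79), Junb (0.71) and Grin2c (0.64). Closest to Homer1 (AB017140_at) were Rgs4 (0.76), Pak1 (0.63) and Mapk6 (0.62). Nptx1 (rc_AI072943_at) lay nearest Glul (0.69), Rraga (0.69) and Gatm (0.68), and Nptx2 (S82649_s_at) nearest Pik3r1 (0.62), Ptgs2 (0.60) and Ccl2 (0.60). Insyn1 (0.76), Psap (0.64) and Rasl11b (0.58) were nearest Nrn1, and Snap25 (0.66), Acta2 (0.61) and Or5ak25 (0.58) nearest Vgf.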

How the data were processed

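The deposited values are an intensity (signal) per probe set on a linear scale; how the authors summarised and scaled them is not given in the sources used here. They span 0.3128 to 206640. A floor was set at the 25th percentile of all values (185.8) before the log2 transform. Probe sets above it on at least 7 arrays, without 59 control sets, were tested (7503). A 6-group model was fitted with limma 3.58.1 (R 4.3.3, eBayes with intensity trend), with two-sided tests and Benjamini-Hochberg adjustment over 7503 probe sets in each of 9 comparisons at 0.05. The fitting code was tested on simulated data. The number of arrays limits the precision.

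Symbols came from the platform annotation (7018 probe sets name 1 gene, 308 several, 1473 none); of 6122 tested sets with 1 symbol, 6104 were found in the reference by their gene ID. Every probe set of the 6 genes is named, with up to 3 passing genes of each list with the largest difference, and the 3 genes with the highest correlation to each member; Nptx2's samples at 24 h were singled out after their values were seen. Probe sets of 1 gene were compared by exact permutation, and members by 100000 within-group permutations (Python 3.11.15). Members and lists were chosen with earlier results of these data known. Alternatives were the floor, a pseudocount of 100, quantile normalization, no filter, the compared groups alone, array weights, no trend, the 10th percentile of signal as covariate, and leaving out each sample.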

Additional observations from a re-analysis of the deposited data

Results flagged for a closer look

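In 6 of 84 groups of arrays (14 probe sets in 6 groups), 1 array stood apart from the rest by Dixon's ratio, the gap to the nearest other array over the range of the group; chance gives about 5% of groups. Vgf in ipsilateral cortex at 4 h had sample 7 lowest (signal 10100, ratio 0.67), and at 24 h sample 39 lowest (7930, ratio 0.537). Nptx2 (S82649_r_at) had sample 17 lowest in ipsilateral hippocampus (1110, ratio 0.656) and sample 6 lowest in ipsilateral cortex at 4 h (1733, ratio 0.632). Homer1 (AF093268_s_at) had sample 47 lowest in contralateral cortex at 24 h (5373, ratio 0.567), and Nptx1 (rc_AI072098_at) had sample 13 highest in contralateral cortex at 4 h (493.6, ratio 0.588), a group in which 5 of 8 arrays were at or under the floor.

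The ipsilateral minus contralateral difference at 4 h differed between hippocampus and cortex by a tested contrast for 4 probe sets. On the log2 scale this contrast was 1.086 for Homer1 AF093268_s_at, 0.633 for Homer1 AF093267_s_at, 0.652 for Nptx1 rc_AI072943_at and, with its size set by the floor, -1.738 for Nptx1 rc_AI072098_at.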

How the results depend on the processing

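The 38 called differences of the 14 probe sets kept their sign under all 8 alternatives other than leaving out single arrays. All 38 stayed past the threshold with the floor at the 10th percentile, with a pseudocount of 100 and with array weights; 36 did with no filter and with no intensity trend, 34 after quantile normalization and with the compared groups alone, and 25 with the 10th percentile of signal as covariate. Among counts of calls, the hippocampal side difference went from 6 to 0 with that covariate. It went to 7 with a pseudocount of 100, after quantile normalization and with array weights, the added call being S82649_r_at of Nptx2. The hippocampal minus cortical side difference went from 4 to 0 with the covariate and to 2 with the compared groups alone. The contralateral time difference went from 5 to 3 after quantile normalization. Probe-set pairs of 1 gene that differed went from 2 to 5 with the lower floor and 4 after quantile normalization, and correlated member pairs from 1 to 0 after quantile normalization. The cause was not tested. Leaving out 1 array at a time gave 2 to 4 calls for the hippocampal minus cortical side difference, 4 to 8 for the hippocampal side difference, 5 to 7 and 4 to 6 for the ipsilateral and contralateral time differences, and 10 to 11 and 6 to 7 for the contralateral and ipsilateral region differences. No paired analysis was made, because each sample number occurs once in the series and no label ties a sample of one side to the other. All tests took the samples as independent, and whether the sides share animals was not modelled. If they do, neither the side intervals and p-values nor those of the correlations allow for it.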
